A study of Mus musculus with 10 samples.

Results

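Chromatin accessibility and trimethylation of histone H3 lysine 4 (H3K4me3, a mark of promoters) were examined at the genes of the Notch receptors, their ligands and the DNA-binding effector of the pathway in cultured mouse neural stem and progenitor cells (NSPCs). The 9 genes were *Notch1*, *Notch2*, *Notch3*, *Dll1*, *Dll3*, *Dll4*, *Jag1*, *Jag2* and *Rbpj*. A peak was assigned to the gene with the nearest transcription start site (TSS) of a protein-coding transcript and was kept when it lay in the gene or within 50 kb of it. Overlapping peaks of the 6 ATAC-seq libraries were merged into sites, which gave the 9 genes 86 of the 87134 sites assigned to 21853 protein-coding genes. ATAC-seq marks DNA that a transposase can reach, and the value of a site in a library is the fold enrichment of its highest peak over the background that the peak caller set.

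The cells were primary NSPCs from brains of C57BL/6 mice at postnatal day 5, with no genetic change named in the labels. Activated cells grew with FGF2 and EGF, both at 20 ng/ml. Quiescent cells were kept in FGF2 with 25 ng/ml BMP4 and no EGF, for 4 days by the labels, while the study's methods give a shorter time before collection for ATAC-seq. Reactivated cells went from 4 days in BMP4 back to FGF2 and EGF for 9 to 12 days, so these cells also differ from the other groups in time in culture. Each state had 2 ATAC-seq libraries, which the methods describe as biologically independent for quiescent and activated cells and the study calls biological replicates for reactivated cells, and the quiescent and activated states had 1 H3K4me3 library each. Such cultures mix stem cells with progenitors, so a difference between states can also be a difference in the share of cells that are open at a site, and bulk peaks cannot tell these apart.

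Notch receptors are cut after they bind a Delta-like or Jagged ligand on a neighbouring cell, and the released intracellular domain enters the nucleus. There it joins RBPJ, which otherwise sits at target genes with repressors, and turns on genes of the Hes and Hey families. In the postnatal and adult brain the pathway is known for holding neural stem cells in an undifferentiated and often quiescent state, while committed progenitors present ligands to their neighbours.

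The lists held 47323 to 60881 peaks in the quiescent and activated libraries, and 106586 and 107137 in the reactivated ones. The methods give an approximate depth for the libraries, but the lists hold no read counts per peak, so no counting interval can be given for a value. A missing peak says that nothing passed the peak caller, whose lowest calls lay at a fold enrichment of 1.93 to 2.31 (1st percentile of each list), and not that the DNA was closed. All 8 genes checked as NSPC markers (*Sox2*, *Nes*, *Pax6*, *Fabp7*, *Olig2*, *Egfr*, *Vim* and *Hes5*) had a promoter peak in every library, and none of 5 endothelial markers had one in any. Promoter peaks were present at 2 to 3 of 5 neuronal, 1 of 5 microglial, 0 to 1 of 4 oligodendrocyte, 1 of 2 ependymal and 0 to 1 of 2 erythroid markers per library.

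The sites that separated quiescent from activated NSPCs are given first, with their sequences. A site was called open in a state with a peak in both libraries, closed with a peak in neither, and mixed with a peak in 1. Open in activated cells and closed in quiescent cells were 4 sites (4.65%, against 4.01% of the sites of all genes). They lay at the *Dll3* promoter, at a pair of *Jag1* intronic positions and in a *Notch1* intron. Open in quiescent and closed in activated cells were 2 sites (2.33%, against 5.78%), at the upstream TSS of *Notch1* and upstream of *Notch2*. Each sequence covers 200 bases around the summit of the highest peak, or for *Dll3* the 200 bases just upstream of the TSS, read from GRCm38 (mm10) on the strand of the gene. Capitals mark matches to CAGCTG, a form of the E-box, the only match found in these windows among the 4 motifs searched.
*Dll3* promoter, chr7:28302239-28302438, minus strand: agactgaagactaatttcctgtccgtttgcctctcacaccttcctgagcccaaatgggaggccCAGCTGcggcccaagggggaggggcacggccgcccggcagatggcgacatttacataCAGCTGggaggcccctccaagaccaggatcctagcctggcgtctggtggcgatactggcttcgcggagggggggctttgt
*Jag1* intron, chr2:137101220-137101419, minus strand: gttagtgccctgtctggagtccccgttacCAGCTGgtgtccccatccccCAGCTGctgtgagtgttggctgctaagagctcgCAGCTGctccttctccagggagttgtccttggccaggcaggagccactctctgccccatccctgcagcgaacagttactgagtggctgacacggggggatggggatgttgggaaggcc
*Jag1* intron, chr2:137114676-137114875, minus strand: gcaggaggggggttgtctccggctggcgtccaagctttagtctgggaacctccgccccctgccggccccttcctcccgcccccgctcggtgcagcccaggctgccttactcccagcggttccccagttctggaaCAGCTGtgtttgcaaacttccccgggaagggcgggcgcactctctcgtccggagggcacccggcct
*Notch1* intron, chr2:26493630-26493829, minus strand: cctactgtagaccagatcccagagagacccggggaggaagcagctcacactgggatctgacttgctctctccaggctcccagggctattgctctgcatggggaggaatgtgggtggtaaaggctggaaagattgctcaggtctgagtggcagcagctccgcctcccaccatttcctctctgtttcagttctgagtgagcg
*Notch1* upstream TSS, chr2:26516328-26516527, minus strand: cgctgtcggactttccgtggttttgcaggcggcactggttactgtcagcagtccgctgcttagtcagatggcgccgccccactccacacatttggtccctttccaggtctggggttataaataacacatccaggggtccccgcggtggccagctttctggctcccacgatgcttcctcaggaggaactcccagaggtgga
*Notch2* upstream, chr3:97993318-97993517, plus strand: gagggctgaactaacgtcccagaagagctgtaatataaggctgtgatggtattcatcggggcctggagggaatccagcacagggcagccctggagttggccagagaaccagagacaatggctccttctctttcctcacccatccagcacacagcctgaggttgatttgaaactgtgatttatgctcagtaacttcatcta

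The E-box lay 80 and 137 bases upstream of the *Dll3* TSS (first base of each match), 3 times in the window of the *Jag1* site 15.3 kb into the gene, and once in the window of the *Jag1* site 1.8 kb into it. It was thus present at 3 of the 4 sites open only in activated of these 2 states, and at 0 of the 2 open only in quiescent cells. Over all genes it was present at 43.2% of the 3491 sites of the first class, at 15.0% of the 5035 of the second and at 21.2% of all 87134 sites. Of the 86 sites of the 9 genes, 22 (25.6%) held it. A match describes the letters in a window and not binding.

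Of the 86 sites, 20 lay within 1 kb of a TSS and are called promoter sites, and 66 lay farther away. By the annotation, the distal sites were 32 in introns, 26 between protein-coding genes and 8 in exons. *Notch1* had 21 sites, *Dll1* and *Rbpj* 11 each, *Notch2* and *Jag1* 10 each, *Notch3* 8, *Jag2* 6, *Dll4* 5 and *Dll3* 4, where the median protein-coding gene had 2. A peak was present at 30 and 35 of the 86 sites in the quiescent libraries, at 45 and 34 in the activated and at 74 and 67 in the reactivated libraries. The quiescent and activated ranges overlap, and the reactivated libraries stood above both. As shares, these were 34.9% and 40.7%, 52.3% and 39.5%, and 86.0% and 77.9%, against 41.2% and 44.6%, 42.1% and 35.5%, and 76.2% and 76.1% of all sites in the same libraries.

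**Figure D1:**
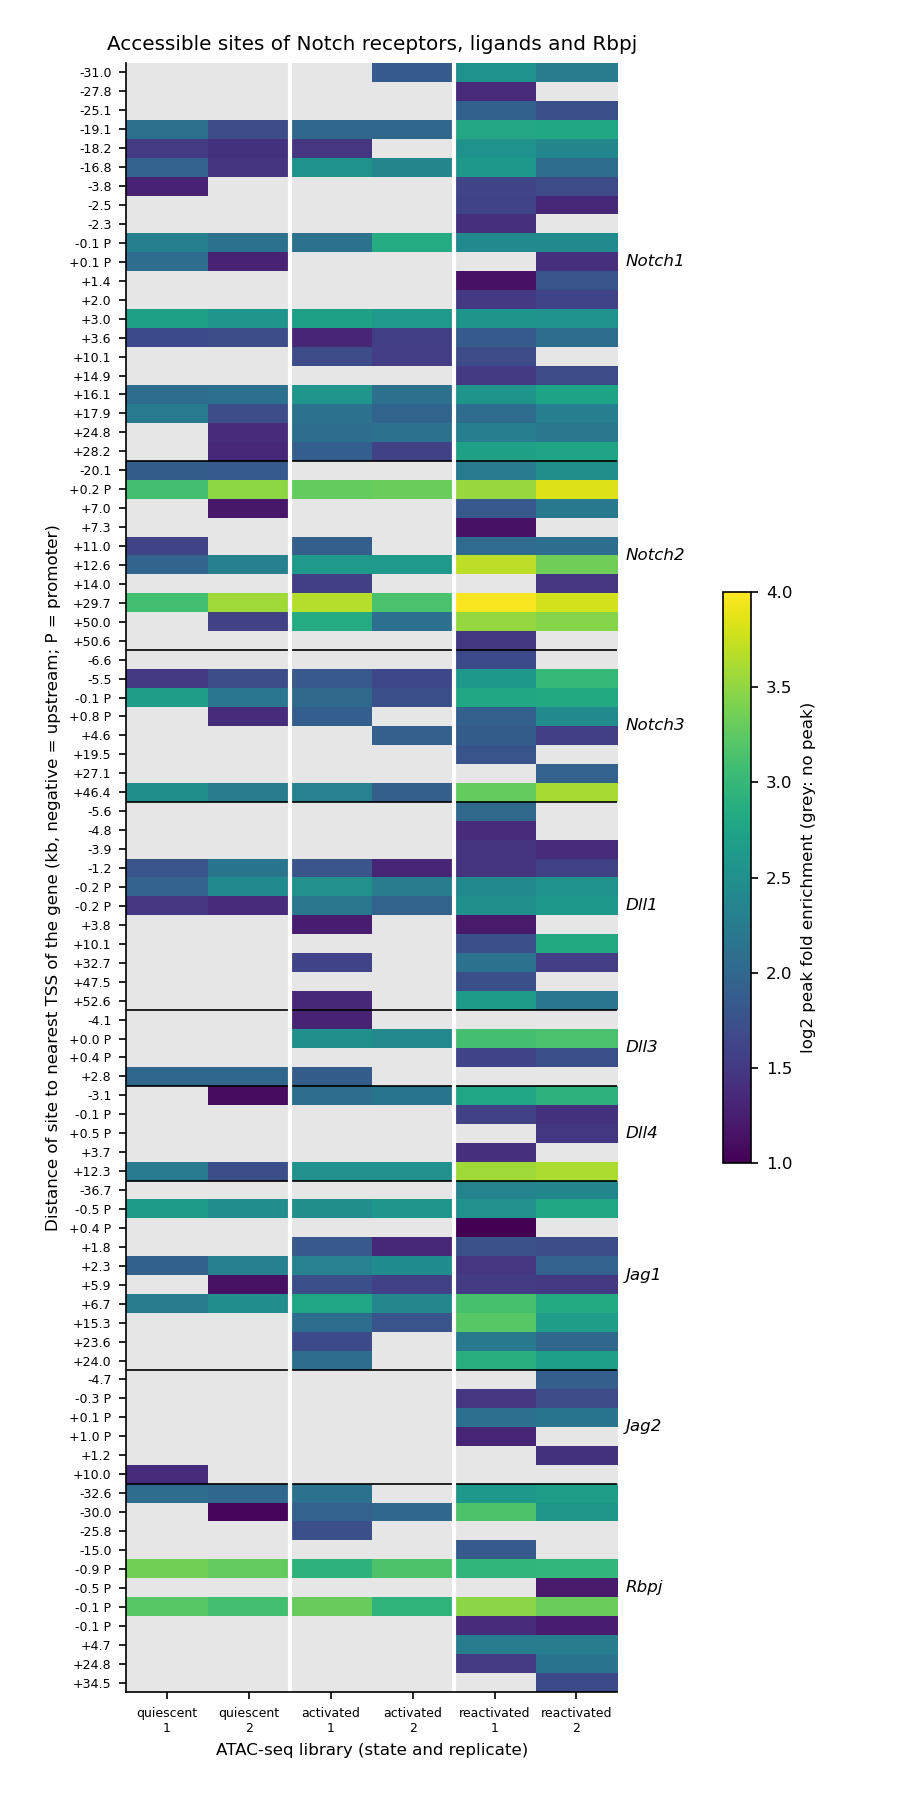
Each row is 1 of the 86 sites, ordered by distance (kb) to the nearest TSS of its gene, each column is 1 ATAC-seq library, and colour gives the log2 fold enrichment of the highest peak (grey, no peak). Peaks fill 74 and 67 rows in the reactivated columns and 30 to 45 in the others, and 34 rows have peaks in reactivated libraries only.

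In all 3 states 22 sites were open (25.6%, against 23.4% of all sites). The class open in activated cells and closed in quiescent cells held 4.65% of the sites of these genes and 4.01% of all sites, and the reverse class held 2.33% and 5.78%. Open in reactivated cells and closed in both others were 15 sites (17.4%, against 14.5%). A further 6 sites were open in activated cells with a peak in 1 quiescent library (6.98%, against 3.5% of all sites), and 3 were open in quiescent cells with a peak in 1 activated library (3.49%, against 3.92%). These last classes were counted after the values had been seen. No test was made of these shares, and the class open in quiescent and closed in activated cells rested on 2 sites. With 1 library left out, 4 to 12 sites were open in activated and closed in quiescent cells. The reverse class then held 2 to 5 sites, and the reactivated-only class 16 to 28.

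**Figure D2:**
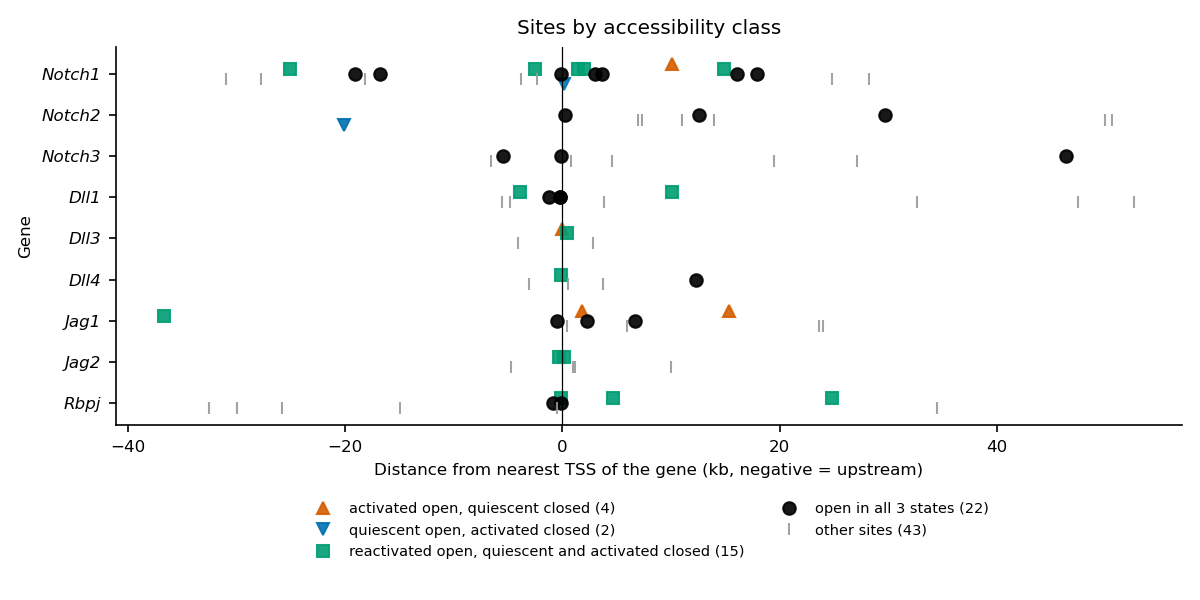
Distance of each site from the nearest TSS of its gene (kb, negative upstream) for the 9 genes, with symbols for the accessibility class and the number of sites per class in the key. The 4 sites open in activated cells and closed in quiescent cells belong to *Dll3*, *Jag1* and *Notch1*, and the 15 reactivated-only sites to 7 genes, *Notch2* and *Notch3* having none.

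Among the receptors, *Notch1* (ENSMUSG00000026923.15, chr2:26457903-26516663, minus strand) has a pair of coding TSSs, and only the inner promoter was open in every library. The inner promoter site, chr2:26503555-26504202, over the first exon, had fold enrichments of 4.90 and 4.33 in quiescent cells, 4.36 and 7.20 in activated cells and 5.42 and 5.37 in reactivated cells. The activated values lay on either side of the reactivated ones and overlapped the quiescent ones, while both reactivated values lay above both quiescent ones before scaling. With each library centred on its median, reactivated minus quiescent was instead -0.61 on the log2 scale (SE 0.28, limma adjusted p 0.109). At the upstream TSS, the site chr2:26516321-26516723, over an exon, reached 4.21 and 2.45 in quiescent cells, had no peak in activated cells, and had 2.66 in reactivated replicate 2 alone. Its class was lost with lists of equal length and under a minimum -log10 q of 10 for every peak. In an intron 10.1 kb downstream of the inner TSS, chr2:26493612-26493826 had no peak in quiescent cells, 3.21 and 2.91 in activated cells and 3.21 in reactivated replicate 1. This class was also lost under the q minimum.

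Away from its promoters, *Notch1* had further sites open in every library in 2 stretches. Those inside the gene lay 3.0, 3.6, 16.1 and 17.9 kb downstream of the inner TSS, and those outside lay 16.8 and 19.1 kb upstream of the outer one. The highest by its mean, chr2:26500525-26501170 over an exon, ranged from 5.84 to 6.56 over the 6 libraries. Sites at 24.8 and 28.2 kb into the gene had peaks in both activated libraries, both reactivated ones and only the second quiescent one. At the 24.8 kb site the values were 2.60 in quiescent replicate 2, 4.24 and 4.37 in activated cells and 4.86 and 4.60 in reactivated cells.

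*Notch2* (ENSMUSG00000027878.11, chr3:98013527-98150361, plus strand), the receptor with a single coding TSS, had the strongest promoter of the receptors. The site chr3:98013128-98014260, over the first exon, had fold enrichments of 8.56 and 11.28 in quiescent cells, 9.81 and 9.91 in activated cells and 11.6 and 14.36 in reactivated cells. The activated values fell between the quiescent ones. An intronic site 29.7 kb downstream, chr3:98042892-98043532, was as strong, with 8.49 and 11.86, 12.73 and 8.82, and 15.7 and 13.92 in the same order, and quiescent and activated cells again overlapped. A second intronic site, chr3:98025722-98026591, 12.6 kb into the gene, had 3.95 and 4.97 in quiescent cells, 6.10 and 6.16 in activated cells and 12.99 and 10.22 in reactivated cells, with no overlap between states before scaling. With each library centred on its median, activated minus quiescent was 0.26 on the log2 scale (SE 0.23, limma adjusted p 0.517). Reactivated minus quiescent was 0.54 (limma adjusted p 0.0808), and reactivated minus activated 0.28 (limma adjusted p 0.411). No contrast passed at this site.

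The site open in quiescent and closed in activated cells lay 20.1 kb upstream of *Notch2*, between genes, at chr3:97993292-97993536. Its fold enrichment was 3.68 and 3.59 in quiescent cells, absent from both activated lists, and 4.67 and 5.59 in reactivated cells. It was kept with lists of equal length and lost with a -log10 q minimum of 10. An intronic site about 50 kb into *Notch2*, chr3:98063324-98063745, was mixed in quiescent cells, with 2.98 in replicate 2 only, and reached 7.16 and 4.28 in activated cells and 11.49 and 10.94 in reactivated cells.

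*Notch3* (ENSMUSG00000038146.8, chr17:32120820-32166852, minus strand) was the member nearest to a lower value in activated cells. Its promoter site chr17:32166752-32167071, over the first exon, had fold enrichments of 6.42 and 4.51 in quiescent cells, 4.11 and 3.34 in activated cells and 6.94 and 7.05 in reactivated cells. Before scaling, both activated values lay below both quiescent values, and the reactivated ones above all. With each library centred on its median, reactivated minus quiescent was instead -0.46 on the log2 scale (SE 0.22, limma adjusted p 0.127). A site 46.4 kb downstream of the inner of its coding TSSs, chr17:32091014-32091780, lies between protein-coding genes and over the annotated gene *Pdxk-ps*. It had 5.62 and 4.82, 5.04 and 3.75, and 9.79 and 12.19, with overlap between quiescent and activated cells. No *Notch3* site was open in 1 of the quiescent and activated states and closed in the other.

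Among the ligands, *Dll3* (ENSMUSG00000003436.11, chr7:28293553-28302238, minus strand) was the gene whose promoter separated the states. *Dll3* encodes a divergent Delta-like protein that stays largely inside the cell and does not activate Notch on a neighbour. The site chr7:28301990-28302514 spans its TSS and first exon. No peak was present there in either quiescent library, and the fold enrichment was 5.66 and 5.34 in activated (5.50 ± 0.22, SD, n = 2) and 8.58 and 8.81 in reactivated cells (8.69 ± 0.16, SD, n = 2). The activated values ranked at the 63.9th and 63.5th percentile of their lists, so they were not among the weakest calls. A promoter peak in both activated and neither quiescent library was found at 205 of 21853 genes (0.938%). The class was kept with a -log10 q minimum of 10, equal lists, 1 TSS per gene, assignment by summit and merging within 150 bp, the only site of the 4 to keep it under all of these. An intronic *Dll3* site 2.8 kb downstream, chr7:28299278-28299515, had the other order, with 4.02 and 4.05 in quiescent cells, 3.71 in activated replicate 1 and no peak in the other 3 libraries.

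*Dll1* (ENSMUSG00000014773.13, chr17:15367354-15376872, minus strand), a ligand that activates Notch in trans, was open at its promoter in every library. The site over an exon at its TSSs, chr17:15375667-15376659, had fold enrichments of 3.84 and 5.44 in quiescent cells, 5.74 and 4.83 in activated cells and 5.40 and 5.81 in reactivated cells, and the states overlapped. At the adjoining upstream site chr17:15376874-15377209 the values were 2.79 and 2.60, 4.61 and 3.87, and 5.70 and 6.04. Here the states did not overlap before scaling. A noncoding gene, *A930024N18Rik*, overlaps this promoter, and ATAC-seq cannot assign its openness to either gene. Of the 11 *Dll1* sites, 3 had a peak in each quiescent library, 6 and 3 in the activated and 11 and 7 in the reactivated libraries.

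*Dll4* (ENSMUSG00000027314.6, chr2:119325784-119335962, plus strand), another activating ligand, had no promoter peak in quiescent or activated cells. In reactivated cells the site chr2:119325554-119325787 at the TSS had 3.01 and 2.72, which ranks among the weak calls of those lists. Another annotated gene, *Gm14207*, overlaps this promoter and the site 3.1 kb upstream, and neither assay can assign a signal there to either gene. A site between genes 12.3 kb downstream of the TSS, chr2:119337809-119338312, was open in all libraries. Its fold enrichment was 4.73 and 3.29 in quiescent (4.01 ± 1.02, SD, n = 2), 5.70 and 5.75 in activated (5.72 ± 0.031) and 11.9 and 12.42 in reactivated cells (12.2 ± 0.37). The states did not overlap there before scaling. With each library centred on its median, activated minus quiescent was 0.33 on the log2 scale (SE 0.22, limma adjusted p 0.379). A site 3.1 kb upstream, chr2:119322408-119322905, had 2.14 in quiescent replicate 2 only, 4.22 and 4.50 in activated cells and 6.80 and 7.64 in reactivated cells.

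*Jag1* (ENSMUSG00000027276.7, chr2:137081456-137116644, minus strand), a Jagged ligand expressed by neural stem cells and their niche, was open at its promoter in every library. The site chr2:137116653-137117707, upstream of the TSS, had fold enrichments of 6.19 and 5.56 in quiescent cells, 5.61 and 5.99 in activated cells and 5.71 and 6.92 in reactivated cells, all overlapping. The intronic site chr2:137101175-137101479, 15.3 kb into the gene, had no quiescent peak, 4.24 and 3.42 in activated cells and 9.31 and 6.43 in reactivated cells. The intronic site chr2:137114644-137115077, 1.8 kb into the gene, had no quiescent peak, 3.59 and 2.53 in activated cells and 3.36 and 3.27 in reactivated cells. Both lost the class with a -log10 q minimum of 10, and the second also when peaks within 150 bp were merged, since it then joined its neighbour. A pair of sites over exons 23.6 and 24.0 kb into the gene had peaks in activated replicate 1 (3.18 and 4.24) and in both reactivated libraries, but in no quiescent one.

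*Jag2* (ENSMUSG00000002799.6, chr12:112907819-112929776, minus strand), the other Jagged ligand, had no peak in the activated libraries and a single weak peak in quiescent replicate 1, 10 kb from a TSS, with 2.60. Its promoter site chr12:112929419-112929894, over the first exon, had 4.28 and 4.49 in reactivated cells alone. A promoter peak in both reactivated libraries and in no other was found at 3.67% of genes, and *Dll4* and *Jag2* were the members of this kind.

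*Rbpj* (ENSMUSG00000039191.12, chr5:53466152-53657362, plus strand), with 6 coding TSSs, had strong promoter sites in all libraries. At chr5:53590034-53590807, over a first exon, the fold enrichments were 9.32 and 8.50 in quiescent cells, 9.84 and 7.71 in activated cells and 11.1 and 9.98 in reactivated cells, and quiescent and activated cells overlapped. At chr5:53588947-53589610, about 0.9 kb upstream, they were 10.28 and 9.71, 7.67 and 8.96, and 7.86 and 7.93. There both quiescent values lay above all the others. Of the 11 sites of *Rbpj*, 2 were open in all states and 3 in reactivated cells only.

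A promoter peak in all 6 libraries was thus found for 6 of the 9 genes (*Notch1*, *Notch2*, *Notch3*, *Dll1*, *Jag1* and *Rbpj*), against 52.2% of all genes. Taken by state, 6 of the 9 had promoter peaks in both quiescent libraries, 7 in both activated and 9 in both reactivated ones, against 54.6%, 55% and 64.2% of all genes. As a gene, none of the 9 had promoter peaks in both quiescent and neither activated library, which 0.741% of genes did, since the inner *Notch1* promoter stayed open. In order of the promoter values, *Notch2* and *Rbpj* came first and did not separate from each other in quiescent or activated cells. In quiescent cells *Jag1*, *Notch3*, *Dll1* and *Notch1* followed, with means of 5.87 ± 0.45, 5.47 ± 1.35, 4.64 ± 1.13 and 4.61 ± 0.41 (SD, n = 2), and no neighbours in that order were separated. *Dll3*, *Jag2* and *Dll4* lacked quiescent promoter peaks.

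**Figure D3:**
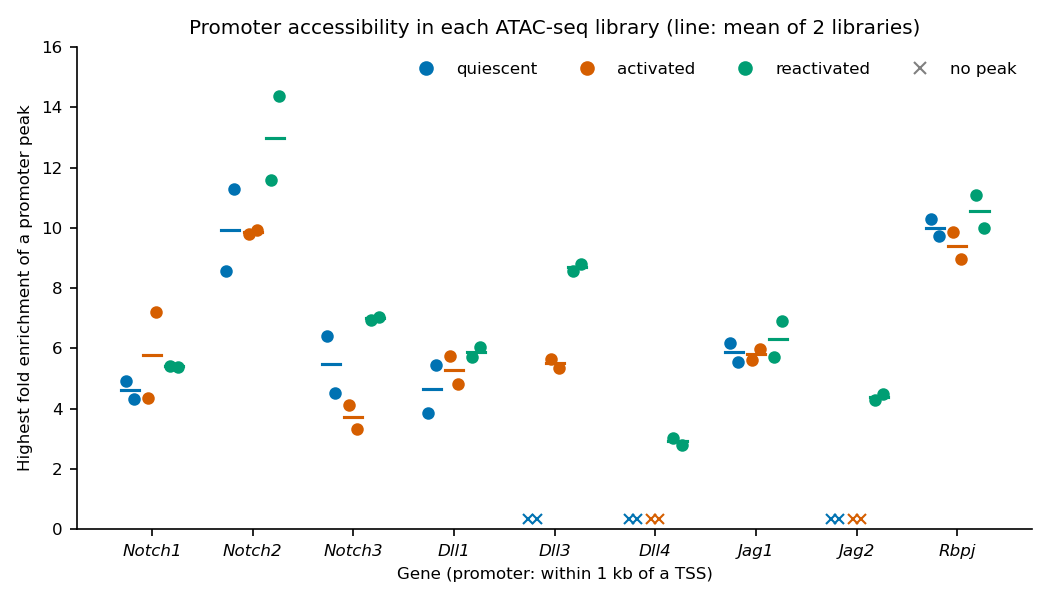
Highest fold enrichment of a promoter peak of each gene (within 1 kb of a TSS) in each ATAC-seq library, with a line at the mean of the 2 libraries of a state and a cross where a library has no promoter peak. *Dll3* has no peak in quiescent cells and values of 5.34 to 5.66 in activated cells and 8.58 to 8.81 in reactivated cells, while *Dll4* and *Jag2* have peaks in reactivated cells only.

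Of the 86 sites, 22 had a peak in all 6 libraries (8 promoter, 14 distal) and could be tested with limma on log2 fold enrichment, centred on the median of each library and adjusted by Benjamini-Hochberg over all 20381 such sites. The other 64 sites, *Dll3* and *Jag2* among them with every site, have no test. Between activated and quiescent cells 0 of the 22 passed an adjusted p of 0.05, where 8.99% of all tested sites did (4.56% higher, 4.43% lower in activated). In simulated data the same fit recovered 43% of planted log2 changes of 1 and 86% of those of 2. A missing call therefore does not show that a site was unchanged. At an unadjusted limma p of 0.05, 4 of 22 passed (18.2%, against 24.0% of all). The median difference was -0.11 on the log2 scale over the 22 sites and -0.06 over all. The *Notch3* promoter came nearest, at a log2 difference of -0.75 (SE 0.22) and an adjusted p of 0.0528 by limma. It passed with lists of equal length (adjusted p 0.0308) and with assignment by summit (0.0421). The next were the *Dll1* site 1.2 kb upstream (-0.62, SE 0.22, limma adjusted p 0.102) and the *Rbpj* site 0.9 kb upstream (-0.48, SE 0.19, limma adjusted p 0.132). The adjoining *Dll1* promoter site, whose states did not overlap before scaling, had a difference of 0.44 (SE 0.21, limma adjusted p 0.22). 

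**Figure D4:**
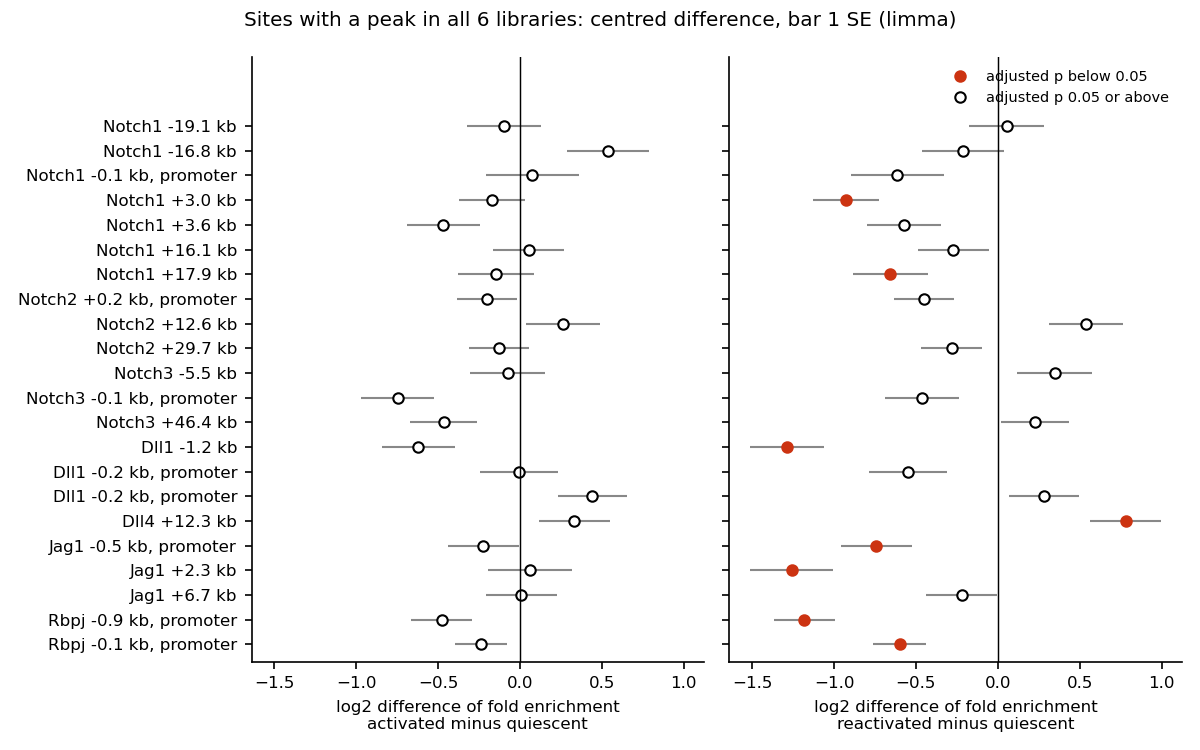
Centred log2 difference of fold enrichment, with 1 SE, at the 22 sites with a peak in all 6 libraries, for activated minus quiescent (left) and reactivated minus quiescent (right), red where the limma adjusted p is below 0.05. No site is red on the left, and on the right 8 are, 7 of them negative and the *Dll4* site 12.3 kb downstream positive at 0.78.

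The comparisons of reactivated cells share the quiescent or the activated libraries with the first and with each other, and all depend on the scaling. Before centring, the median log2 difference over all tested sites was 0.15 for activated, and 0.70 for reactivated, against quiescent cells, and 0.53 for reactivated against activated. Relative to that shift, 8 of 22 sites differed between reactivated and quiescent cells, 1 higher and 7 lower (limma, 32.5% of all sites, 10.1% higher and 22.4% lower), whereas without centring 10 were called higher and 0 lower (66% and 0.51% of all sites). The site called higher with centring, 12.3 kb downstream of *Dll4*, had a log2 difference of 0.78 (SE 0.22, limma adjusted p 0.0143). It also stood higher without centring, but the call was lost when quiescent replicate 2 (adjusted p 0.11), reactivated replicate 1 (0.0873) or reactivated replicate 2 (0.0815) was left out.

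The 7 sites below the shift belonged to *Dll1* (1.2 kb upstream, -1.29), *Jag1* (2.3 kb into the gene, -1.26, and the promoter, -0.74), *Rbpj* (0.9 kb upstream, -1.18, and the promoter, -0.60) and *Notch1* (3.0 and 17.9 kb into the gene, -0.93 and -0.66). Limma adjusted p-values ran from 0.00075 at *Rbpj* to 0.0427 at the second *Notch1* site. Without centring none of these passed, and the *Jag1* promoter, the *Rbpj* promoter and the *Notch1* site at 17.9 kb turned positive. The call at that *Notch1* site was also lost with a -log10 q minimum of 10 (limma adjusted p 0.0586) and with the mean of peaks (0.141). It was lost too with quantile normalization (0.0967) and a replicate block (0.051). The mean of peaks also ended the calls at the *Jag1* and *Rbpj* promoters. With centring, 4 of the 8 calls were kept in each of the 6 fits that left out 1 library. These were the first *Dll1*, *Jag1*, *Rbpj* and *Notch1* sites of the list above. Between reactivated and activated cells 4 of 22 sites differed (limma, 17.6% of all sites, 5.88% higher and 11.7% lower). These were the *Notch3* site 46.4 kb downstream (0.69, SE 0.21, adjusted p 0.0348), and lower the *Jag1* site at 2.3 kb (-1.32), the *Notch1* site at 3.0 kb (-0.75) and the *Rbpj* site 0.9 kb upstream (-0.70). Without centring 7 were called higher and 1 lower (48.8% and 0.456% of all sites), and 0 of the 4 calls were kept in every fit with 1 library left out.

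The 15 sites open in reactivated cells only were spread over *Notch1* (5), *Rbpj* (3), *Dll1* and *Jag2* (2 each), *Dll3*, *Dll4* and *Jag1* (1 each). The *Jag1* site 36.7 kb upstream, chr2:137153111-137153669, had 5.07 and 5.19 in reactivated cells. The *Dll1* site 10.1 kb downstream, chr17:15365756-15365980, had 3.34 and 7.05. The *Rbpj* intronic site chr5:53470708-53470995 had 4.80 and 4.79, and the *Notch1* site 25.1 kb upstream, chr2:26541619-26541882, had 3.83 and 3.32. No library of the other states had a peak at any of these. The reactivated lists were also the longest, and with each list limited to its 47037 strongest peaks, 0 sites stayed in this class. Under that limit the 4 sites open in activated and closed in quiescent cells and the *Notch2* upstream site kept their classes.

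H3K4me3 was present at the promoters of all 9 genes in both states, where 60.6% of all genes had such a region in quiescent and 59.4% in activated cells. There were 17 regions at these genes in quiescent and 15 in activated cells. With 1 library per state no test or error can be given, and values are set side by side. Fold enrichments over input in quiescent and activated cells were 47.1 and 43.0 at *Notch1*, 47.9 and 36.6 at *Notch2* and 24.3 and 27.8 at *Notch3*. Among the ligands they were 47.7 and 42.6 at *Dll1*, 3.64 and 3.59 at *Dll3*, 18.0 and 8.27 at *Dll4*, 55.2 and 47.7 at *Jag1* and 11.1 and 8.13 at *Jag2*. *Rbpj* had 41.2 and 43.1, in a region that is no promoter region of *Rbpj* with 1 TSS per gene. The ratio of quiescent to activated was 1.08 at the median of 12966 promoters and 1.12 at the median of the 9.

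*Dll4* stood apart with a ratio of 2.18, at the 99.85th percentile of those promoters, and it was the only member of at least 1.5, which 5.47% of promoters reached. None of the 9 was as much higher in activated cells, as 0.81% of promoters were. The region over the site 12.3 kb downstream of *Dll4*, open in every library, had 25.1 in quiescent and 13.0 in activated cells, a ratio of 1.94. A region over the ATAC-seq site 3.1 kb upstream was called in quiescent cells only, at 3.41, the lowest value of a region at these genes. At the promoter and the downstream region the mark was thus higher in the quiescent library. The ATAC-seq value at the downstream site was higher in the activated libraries before scaling (5.70 and 5.75 against 4.73 and 3.29). With centring, activated minus quiescent was 0.33 there on the log2 scale and did not pass (SE 0.22, limma adjusted p 0.379). *Dll4* and *Jag2* carried H3K4me3 at the promoter in both states without a promoter ATAC-seq peak in quiescent or activated cells. Of all 8334 genes without such a peak, 6.62% carried the mark in both states.

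*Dll3*, whose promoter had no quiescent ATAC-seq peak, had the weakest mark of the 9 in both states, with a ratio of 1.01, and its region was absent in both states under a -log10 q minimum of 10. Its region measured 1.02 kb in quiescent and 0.27 kb in activated cells. The widest regions lay over *Notch1* (6.70 and 5.48 kb), *Dll1* (5.30 and 5.44 kb), *Jag1* (5.08 and 4.51 kb) and *Rbpj* (4.06 and 4.05 kb), all above the 91st percentile of widths in their lists. Of the 86 ATAC-seq sites, 30 overlapped H3K4me3 regions of both states, where 23.7% of all sites did. These included 16 of the 22 open in all states (58.3% of that class over all genes) and 5 of the 15 reactivated-only sites (16.7%). They also included 3 of the 4 open in activated and closed in quiescent cells (14.9%) and 0 of the 2 in the reverse class (5.08%). The *Notch1* upstream TSS, open in quiescent cells, carried no H3K4me3 region in either state.

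**Figure D5:**
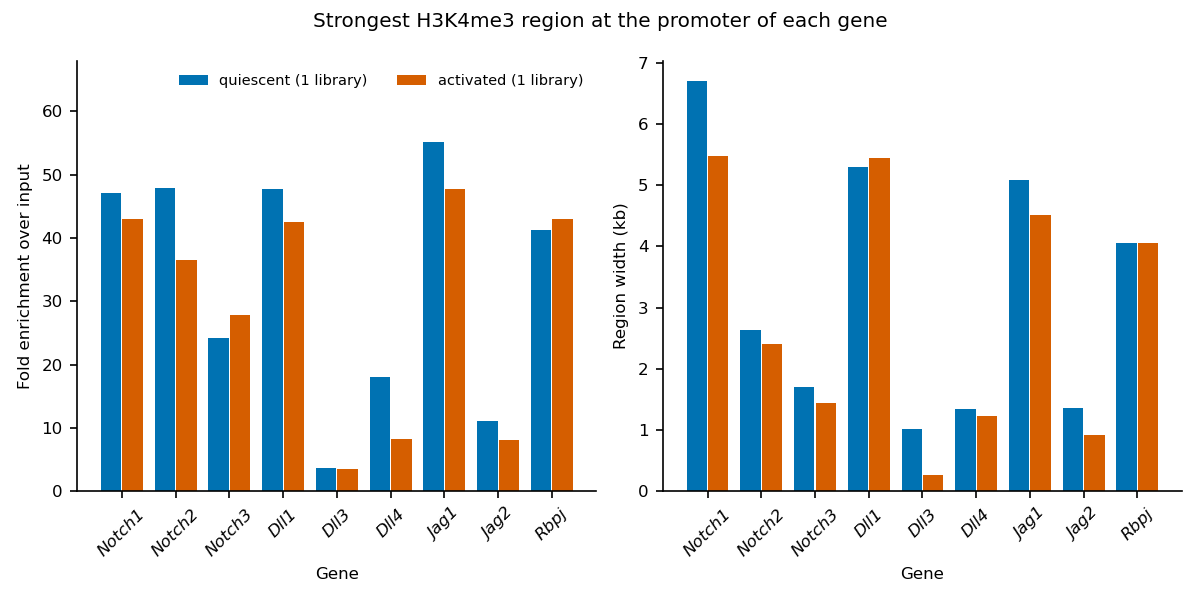
Fold enrichment over input (left) and width in kb (right) of the strongest H3K4me3 region at the promoter of each gene, in 1 quiescent (blue) and 1 activated (orange) library, without error bars because there are no replicates. *Dll4* falls from 18.0 to 8.27 while *Dll3* stays at 3.64 and 3.59.

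The RBPJ motif GTGGGAA, searched on both strands in 200 bp around the summit, was present at 5 of the 86 sites (5.81%), against 4.53% of all sites. The 5 sites lay in *Notch1* (2), *Rbpj* (2) and *Notch3* (1), and 1 of them was open in all states, the *Rbpj* site 0.9 kb upstream. The AP-1 motif TGANTCA was present at 8 sites (9.3%, against 7.06%), and the NFI palindrome, with the arms TTGGC and GCCAA 5 bases apart, at 0 (against 0.0998%).

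The 47 other genes of the pathway, from modifiers and proteases to targets, had 330 sites, of which 93 were tested. Between activated and quiescent cells 12 of these passed in limma (12.9%, against 8.99% of all), 7 higher (adjusted p 0.000249 to 0.0386) and 5 lower in activated cells (0.000941 to 0.0262). Higher were sites at *Neurl1a*, a ubiquitin ligase of Notch ligands (4.47 and 3.21 in quiescent cells, 11.96 and 9.77 in activated cells, log2 difference 1.31), and at *Maml2*, a coactivator of the RBPJ complex (4.21 and 4.05 against 13.2 and 12.6, 1.44). A promoter site of *Hes6*, which counteracts HES1, had 2.07 and 3.75 against 6.51 and 6.42 (1.01), and a site at *Dtx4* had a difference of 0.78. At none of these 4 sites did the libraries of the 2 states overlap.

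Lower in activated cells were a pair of sites at *Maml3*, another coactivator, with 8.55 and 8.71 against 4.91 and 3.28 (log2 difference -1.31) and with 7.32 and 7.18 against 4.11 and 3.85 (-1.07). A site 12.3 kb upstream of *Hes5*, a direct Notch target in neural stem cells, had 6.84 and 7.81 against 6.03 and 3.32 (-0.92). *Dtx1*, a Notch target and regulator, had 5.67 and 5.28 against 3.19 and 3.55 at its promoter (-0.91), and the promoter of *Mib1*, which ubiquitinates ligands, had 14.4 and 13.3 against 12.2 and 10.3 (-0.51), reversing to 0.50 when the mean of the peaks was used. The calls at *Neurl1a* and *Maml2* and the first at *Maml3* were kept in every fit that left out 1 library. Without centring, 10 were called higher and 2 lower (6.73% and 1.3% of all sites). With 1 library left out, 3 to 6 sites were called higher and 1 to 6 lower. The fewest higher calls came without quiescent replicate 1 or activated replicate 2, and the fewest lower calls, 1 and 2, without quiescent replicate 2 and quiescent replicate 1. The *Hes6* difference fell to 0.50 without quiescent replicate 1 (limma adjusted p 0.274), and its call was also lost without either activated library, with quantile normalization (0.0637) and with the quiescent and activated libraries fitted alone (0.0543). The *Hes5* difference came to -0.60 without activated replicate 2 (limma adjusted p 0.17) and to -0.36 with the mean of peaks (0.496), and its call was also lost without either quiescent library and without centring (0.134). The *Dtx4* difference came to 0.45 with the mean of peaks (limma adjusted p 0.267). The calls at *Dtx4* and *Mib1* were lost without any 1 of the quiescent or activated libraries. The *Mib1* difference came to -0.31 without centring (limma adjusted p 0.269), and its call was also lost with quantile normalization (0.111). The call at *Dtx4* was also lost with quantile normalization (0.0509) and with the quiescent and activated libraries fitted alone (0.0501). The call at *Dtx1* was lost without either quiescent library, without activated replicate 1, with the mean of peaks (0.0531) and without centring (0.0687). Promoters were open at 40 of the 47 genes in quiescent cells, 42 in activated cells and 46 in reactivated cells (54.6%, 55% and 64.2% of all genes), and 10 sites were open in activated cells and closed in quiescent cells against 15 the other way (3.03% and 4.55%, against 4.01% and 5.78% of all sites).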

How the data were processed

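The authors trimmed reads with Trim Galore 0.4.0, aligned them to mm10 with Bowtie2 2.2.5, removed duplicates with Picard 1.88 and SAMtools 1.3.1, and called peaks per library with MACS (FDR 0.05; broad calls against input for H3K4me3, broad cutoff 0.01). The handling of Tn5 offsets is not given in the sources used here. The deposited lists hold a fold enrichment (a ratio), -log10 p-values and -log10 q-values, a score and a summit offset for each peak. The deposited -log10 q-values served only for a stricter minimum, and the deposited scores and p-values were not used. Inputs were not analysed here.

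Peaks on the autosomes and X and Y were assigned by their middle to the nearest coding TSS of GENCODE M21 (GRCm38) and merged per gene where they overlapped or abutted. Sequences came from the GRCm38 assembly. Contrasts used limma 3.58.1 in R 4.3.3 (trended moderation) on centred log2 fold enrichment of sites with a peak in all 6 libraries. Python 3.11.15 did the rest. The programs were tested on simulated data. p-values measure only the spread between 2 libraries per state. Alternatives were a q minimum, equal list lengths, other TSSs, summits, merging within 150 bp, the mean of peaks, other scaling, a replicate block, fewer libraries and looser open states. Sites were named by rule: each member's strongest promoter site, every site open in one of the quiescent and activated states and closed in the other, sites past an adjusted p of 0.05, and at most 2 reactivated-only sites per gene. Other named sites were chosen after their values were seen. The genes and lists were chosen with earlier results of these data known. Some sites that the rule selects are not reported here.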

Additional observations from a re-analysis of the deposited data

How the results depend on the processing

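The class counts and the limma calls at the 9 genes were recomputed under other settings, and the cause of each move was not tested. Of the repeats of a count, 107 stayed within 1.5 times the reported value and 41 did not. With a -log10 q minimum of 10, 2 sites were open in activated and closed in quiescent cells, 1 was the reverse and 12 were open in all states, 0 sites were called higher in reactivated than in quiescent or activated cells, and H3K4me3 regions numbered 11 in quiescent and 9 in activated cells. With lists of equal length, 8 sites were open in activated and closed in quiescent cells, 0 were open in reactivated cells only, 1 was called lower in activated than quiescent cells, and 4 lower in reactivated than quiescent cells. With open defined by a single library, the class sizes were 14 (activated, not quiescent), 5 (quiescent, not activated) and 34 (reactivated only). Assignment by summit gave 1 site lower in activated than quiescent and 5 lower in reactivated than activated cells, and 1 TSS per gene gave 0 higher in reactivated than activated cells. The mean of peaks gave 0 higher and 1 lower in reactivated than activated, and 4 lower in reactivated than quiescent cells. Without centring, 10 sites were higher and 0 lower in reactivated than quiescent cells, and 7 higher and 1 lower than activated cells.

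Leaving out each library in turn, 4 to 12 sites were open in activated and closed in quiescent cells, 2 to 5 were the reverse, 16 to 28 were reactivated-only and 22 to 28 open in all states. A state with 1 library left counts as open or closed by that library alone. Sites called in limma were 0 to 2 higher and 4 to 9 lower in reactivated than quiescent cells, 0 to 1 higher and 0 to 4 lower than activated cells, and 0 in activated against quiescent cells throughout, the lone library being assumed to vary like the others. The replicate differences were nearly uncorrelated between states (r 0.0076, 0.039 and -0.0056 across sites). This does not show whether libraries with the same replicate number shared a preparation. A replicate block gave 0, 8 and 5 calls for activated against quiescent, reactivated against quiescent and reactivated against activated cells, and the *Notch1* site 17.9 kb into the gene then missed the threshold (limma adjusted p 0.051).

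Between activated and quiescent cells, the *Dll1* promoter site (reported at -0.004) came to 0.036 with the q minimum, 0.0008 with equal lists, 0.20 without centring, and -0.33 to 0.29 with 1 library left out. The *Notch2* promoter came to 0.16 with the mean of peaks, 0.0052 without centring and 0.036 without quiescent replicate 2 (range -0.48 to 0.036 with 1 library left out). The *Notch1* promoter came to -0.40 without activated replicate 2 (range -0.40 to 0.57 with 1 library left out), and the *Mib1* promoter to 0.50 with the mean of peaks. Between reactivated and quiescent cells and without centring, the *Jag1* promoter came to 0.10, the *Notch1* site at 17.9 kb to 0.19 and the *Rbpj* promoter to 0.24. Of all repeats at named sites, 404 kept direction and side of the threshold, 78 lost the call, 2 gained it and 14 turned sign. Of the repeats of the counts for the other pathway genes, 22 stayed within 1.5 times and 10 did not.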
